A study of Mus musculus with 24 samples.

Results

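The genes described here are 48 genes of the cell cycle and mitosis, taken by symbol from the 56941 genes listed in the deposited values. They fall into 15 genes of DNA replication and nucleotide supply (S-phase members), 17 genes of mitosis (mitotic members), and 16 cyclins, cyclin-dependent kinases (CDKs), CDK inhibitors, transcription factors, and proliferation markers (regulator and marker members). The cells were C2C12, a mouse myoblast line that fuses into contractile myotubes, of the genotype ChR2::tdTomato, in which ChR2 is a cation channel opened by blue light. All groups carried this channel, were grown on fibrin hydrogels, and were differentiated in medium with inactivated horse serum and IGF-1. Light pulses were given daily for 60 min at 1, 4, or 10 Hz over about 2 weeks of differentiation, with 6 biological replicates per frequency and 6 unstimulated controls, or 24 libraries. A tissue is a pool of many cells of 1 cell line, and a lower level in bulk RNA can come from fewer cells of a type or from less RNA per cell, which cannot be told apart here.

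The cell cycle runs from a growth phase (G1) through DNA synthesis (S phase) and another gap (G2) to mitosis. D cyclins with Cdk4 or Cdk6 act in G1, cyclin E with Cdk2 at the entry to S phase, and cyclins A and B with Cdk1 at the entry to mitosis, while inhibitors such as Cdkn1b (p27) and Cdkn1c (p57) hold the kinases in check. Myoblasts leave the cycle for good when they fuse, while mononucleated reserve cells in the same culture stay able to divide, and the genes of S phase and mitosis are known to be switched on by E2F factors and by the MuvB complex with Mybl2 and Foxm1.

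Library depth ran from 8052369 to 18159144 estimated counts, and 13315 genes passed the filter on low counts, 47 members among them. Mybl2 did not pass. The scaling factor of trimmed mean of M values (TMM) lay at 0.869 to 0.999 at 4 Hz and 0.9043 to 1.047 at 1 Hz, against 1.018 to 1.074 in the controls and 1.001 to 1.049 at 10 Hz. Factors under 0.95 were found in 1 Hz replicates 4 and 6 and in 4 Hz replicates 3 and 4. The 100 most abundant genes held 23.1% to 29.8% of the counts at 4 Hz, more than in any control (20.3% to 22.2%), 21.4% to 27.2% at 1 Hz, and 20.2% to 22.98% at 10 Hz, and mitochondrial genes held 0.545% to 8.90% at 4 Hz, 1.52% to 4.87% at 1 Hz, and 1.37% to 2.72% in the controls. The label gives the cells as myoblasts, but all 15 myotube markers checked passed the filter, with a summed level of 14095 to 17778 counts per 1000000 (CPM) in the controls, and Pax7, a marker of reserve cells, was at 4.88 to 6.83 (median 6.51) CPM. Levels below are TMM-scaled CPM, given as the lowest and highest of 6 libraries with the median, unless transcripts per 1000000 (TPM, which also divides by transcript length) are named. Differences are log2 fold changes (log2FC) with their standard error (SE) from edgeR's quasi-likelihood test, and a gene was called at a Benjamini-Hochberg adjusted p under 0.05 over all 13315 genes.

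The promoters of the members were searched for elements known from cell cycle genes, and the elements found differed by role. RefSeq promoter windows (table build GRCm38.p6, 250 bases before to 50 bases after a start site) were found for 37 of the 48 members. The elements searched on both strands were the cell cycle homology region (CHR, TTTGAA or TTCGAA), an element of promoters active in G2 and mitosis, the CCAAT box (CCAAT), and the E2F site (TTTCCCGC, TTTCGCGC, TTTGCCGC, or TTTGGCGC). A CHR was present in 11 of 14 mitotic members (78.6%) and 3 of 13 S-phase members (23.1%), where 21.7% of the 27025 genes in the table have one. An E2F site was present in 7 of 13 S-phase members (53.8%) and 0 of 14 mitotic members, against 2.6% of all genes. The CCAAT box was found in 92.9% of mitotic and 76.9% of S-phase members, against 41.1% of all genes. A gene with several windows was counted if any of them held the element. Of 10 regulator and marker members, 3 had a CHR, 2 an E2F site, and 6 a CCAAT box. These are matches of letters and do not show that a factor binds there.

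The CHR of 5 members that are described below is shown here, as 30 bases on the strand of the gene with the element in capitals. Positions are in GRCm39 by exact match of the window. In Ube2c, and below in Mcm3 and Mcm5, the element lies on the other strand, so the capitals are its reverse complement.
Cdc20, chr4:118294541-118294570, minus strand, exon of Cdc20: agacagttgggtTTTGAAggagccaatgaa
Plk1, chr7:121758676-121758705, plus strand, exon of Plk1: cccagcgccgcgTTTGAAttcggggaggag
Ube2c, chr2:164611808-164611837, plus strand, exon of Ube2c: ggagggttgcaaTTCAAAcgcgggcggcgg
Mki67, chr7:135318189-135318218, minus strand, exon of Mki67: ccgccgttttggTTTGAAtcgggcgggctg
Cdk1, chr10:69188740-69188769, minus strand, exon of Cdk1: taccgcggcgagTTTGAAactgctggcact

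The E2F sites of 4 replication genes and of Cdk1, the 1 gene printed for both elements, are shown in the same way. Mcm3, Mcm5, and Mcm7 encode subunits of the replicative helicase, and Cdt1 loads it onto DNA.
Mcm3, chr1:20890499-20890528, minus strand, exon of Mcm3: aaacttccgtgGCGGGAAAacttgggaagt
Mcm5, chr8:75835977-75836006, plus strand, outside annotated exons: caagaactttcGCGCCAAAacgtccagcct
Mcm7, chr5:138170111-138170140, minus strand, exon of Mcm7: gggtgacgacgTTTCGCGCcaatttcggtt
Cdt1, chr8:123294774-123294803, plus strand, exon of Cdt1: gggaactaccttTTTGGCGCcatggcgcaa
Cdk1, chr10:69188855-69188884, minus strand, outside annotated exons: tttccgctcccTTTCGCGCtctgcgctccc

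Per transcript length, the members differed widely in level in the unstimulated tissue. The G1 kinase Cdk4 had the highest level, 202 ± 26.1 TPM (SD, n = 6), followed by the cyclin Ccnd3 at 175 ± 12.4 TPM, and their libraries overlapped (174 to 234 and 156 to 191 TPM). Rrm2, the small subunit of ribonucleotide reductase, followed at 132 ± 4.52 TPM, and the sliding clamp Pcna at 113 ± 12.3 TPM. The libraries of Rrm2 and Pcna overlapped as well. Ccnd1 (51.3 ± 5.003 TPM), Cdkn1b (43.7 ± 4.34 TPM), Ccnd2 (39.5 ± 3.64 TPM), and Rrm1, the large reductase subunit (36.3 ± 5.202 TPM), formed the next rank. Genes that mark dividing cells were far lower, with Mki67 (Ki-67) at 0.413 ± 0.245 TPM, the kinetochore motor Cenpe at 0.446 ± 0.102 TPM, and Mybl2 lowest at 0.287 ± 0.0804 TPM. In counts, the 17 mitotic members together held 59.1 to 88.4 CPM in the control libraries and the 15 S-phase members 446 to 475 CPM.

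**Figure D1:**
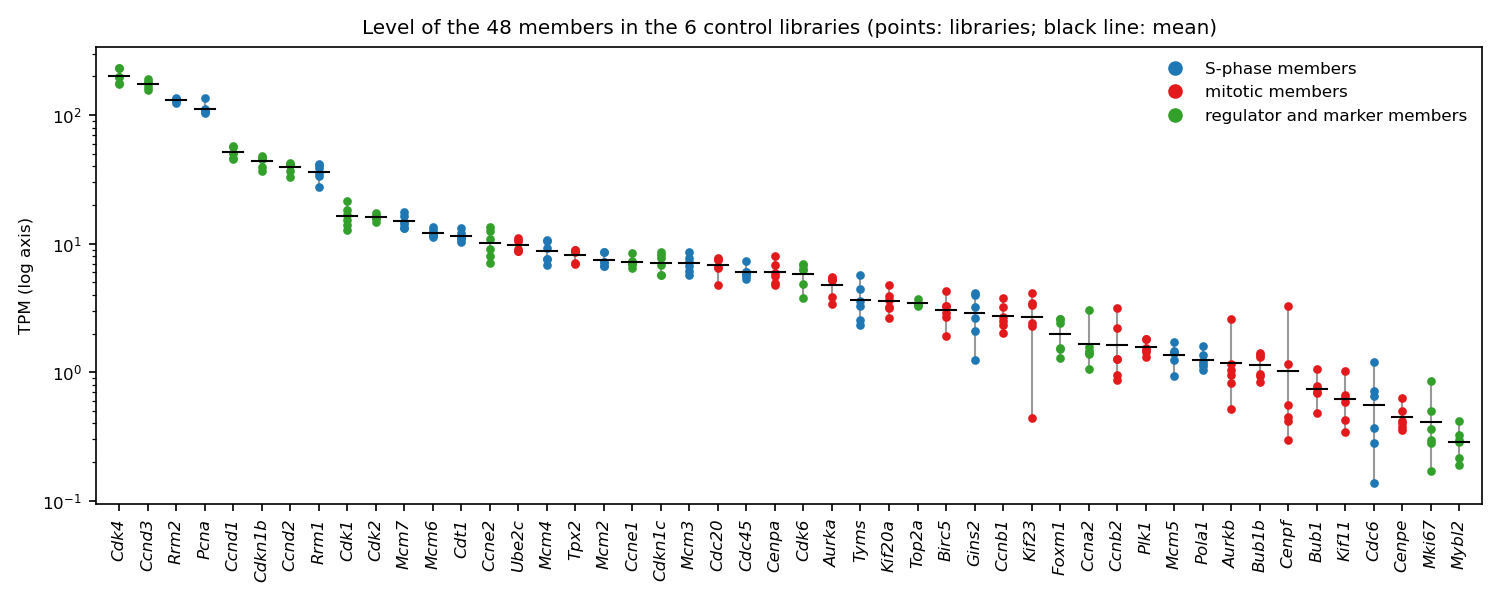
Level of each of the 48 members in the 6 unstimulated control libraries, in TPM on a logarithmic axis, with 1 point per library and colors for the 3 roles. Cdk4, Ccnd3, Rrm2, and Pcna lie at or above about 100 TPM, while Mki67, Cenpe, and Mybl2 lie under 1 TPM on average.

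At 4 Hz, a larger share of the members than of all genes was lower and a smaller share was higher. The members were chosen with earlier results of these data known, so these shares are a description and not an independent test. Against the control, 17 of 47 members (36.2%) were lower and 6 (12.8%) were higher, where 23.9% of all genes were lower and 27.5% higher. With the further demand of an absolute log2FC over 0.5, 12 members were lower and 2 higher, against 12.3% and 12.8% of all genes. All 6 libraries at 4 Hz lay below every control for 7 members, Mcm7, Cdc20, Cenpe, Plk1, Ccnd1, Ccnd2, and Ccna2 (14.7% of all genes), and above every control for Rrm2 and Cdkn1b (12.9% of all genes). At 1 Hz, 6 members (12.8%) were lower and 3 (6.38%) higher, where 18.1% of all genes were lower and 19.2% higher, so the shares of members were below those of all genes in both directions. With the fold threshold, 3 were lower and 2 higher at 1 Hz, against 7.74% and 7.19% of all genes. The count of higher members at 1 Hz was 5 without 1 Hz replicate 5, and without the 4 libraries of TMM factor under 0.95 there were 3 lower and 5 higher. The shares of all genes with these libraries left out are not given here. The 6 libraries at 1 Hz lay below every control for Ccnd1 alone (8.58% of all genes) and above for Cdkn1b alone (5.55% of all genes). On log2(TPM + 1), a scale on which the median log2FC of all genes shifted from 0.04 (TMM scale) to -0.14 at 1 Hz and from 0.06 to -0.21 at 4 Hz, limma tested 43 members and called 20 lower (46.5%) and 1 higher (2.33%) at 4 Hz, where 35.9% of all genes were lower and 5.83% higher, and 5 lower (11.6%) and 1 higher (2.33%) at 1 Hz, where 21.9% and 3.58% of all genes were. Between the 2 scales the sign of the log2FC differed for 10 of these 43 members at 4 Hz, 6 at 1 Hz, and 8 at 10 Hz.

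**Figure D2:**
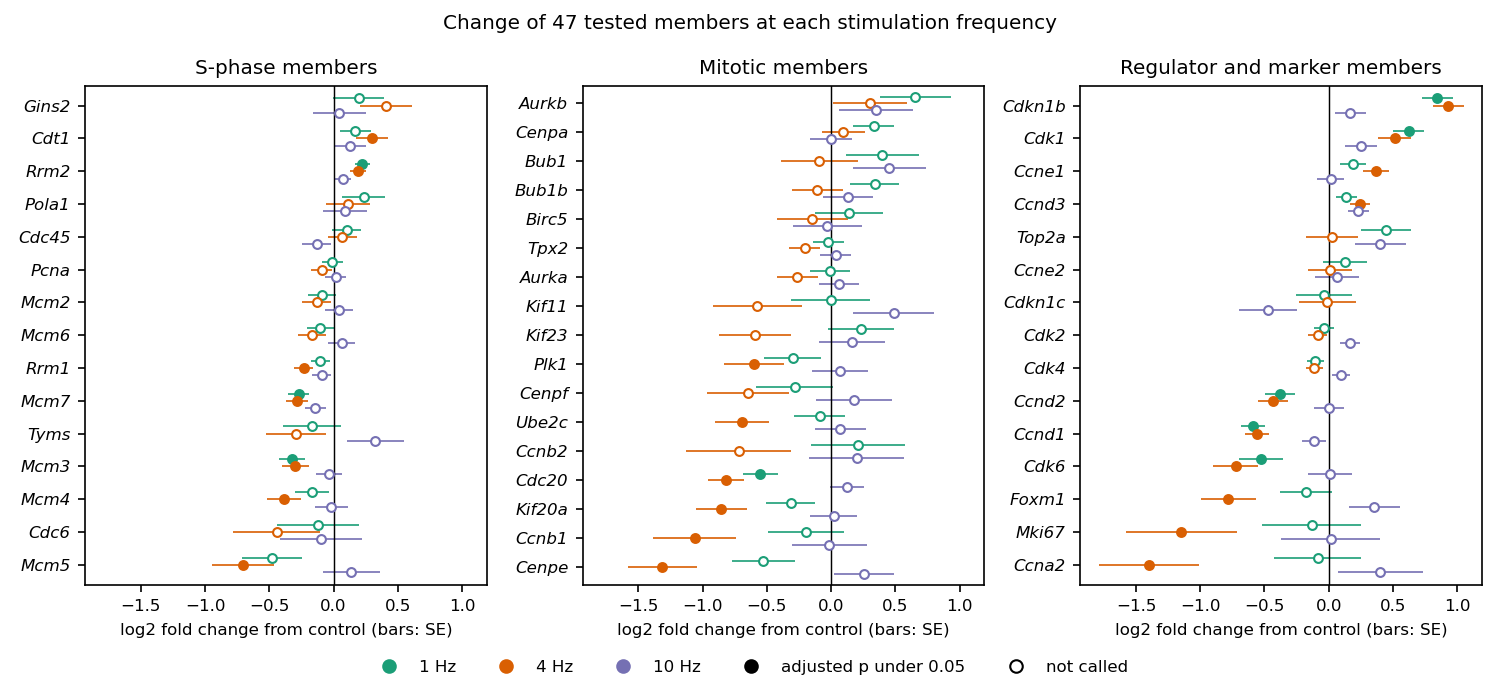
Log2 fold change against the control (± SE) of the 47 tested members at 1, 4, and 10 Hz, grouped by role, with filled points for an adjusted p under 0.05. At 4 Hz 15 of 17 mitotic members lie below 0, Ccna2 lowest among all members at -1.40 and Cdkn1b highest at 0.93, and at 10 Hz no point is filled.

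Among the mitotic members, 6 of 17 (35.3%) fell and 0 rose at 4 Hz, against 23.9% and 27.5% of all genes. Cdc20, the activator of the anaphase-promoting complex, had the smallest p. The gene (ENSMUSG00000006398) lies at chr4:118290098-118294610 of GRCm39, and its level was 4.98 to 8.55 (median 7.18) CPM in the control, 4.23 to 6.47 (median 4.66) at 1 Hz, 3.201 to 4.87 (median 3.82) at 4 Hz, and 6.77 to 9.45 (median 7.31) at 10 Hz. No library at 4 Hz reached the lowest control, while the libraries at 10 Hz lay within or just above the range of the controls. The log2FC of Cdc20 was -0.82 (SE 0.14, adjusted p = 4.2e-05) at 4 Hz and -0.55 (SE 0.14, adjusted p = 0.0028) at 1 Hz. Cenpe, a kinesin that carries chromosomes to the spindle equator, had 1.77 to 3.32 (median 2.06) CPM in the control, 0.805 to 2.88 (median 1.62) at 1 Hz, 0.796 to 1.05 (median 0.943) at 4 Hz, and 1.98 to 4.34 (median 2.55) at 10 Hz. The 4 Hz libraries of Cenpe were narrowly spread and separate from the controls, and those at 1 Hz overlapped both ranges. Its log2FC at 4 Hz was -1.32 (SE 0.27, adjusted p = 0.00028).

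The other mitotic members that fell act from the entry into mitosis to its end. Kif20a, a kinesin of cytokinesis, had 5.17 to 9.86 (median 6.71) CPM in the control, 4.07 to 9.13 (median 5.15) at 1 Hz, 2.23 to 5.47 (median 3.81) at 4 Hz, and 5.82 to 8.46 (median 7.28) at 10 Hz. Ube2c, the ubiquitin-conjugating enzyme of the anaphase-promoting complex, had 4.44 to 6.11 (median 5.84), 2.93 to 7.05 (median 5.94), 2.196 to 4.45 (median 3.65), and 3.98 to 7.96 (median 5.998) CPM in the same order. For both genes the highest 4 Hz library reached into the control range. The log2FC at 4 Hz was -0.86 (SE 0.20, adjusted p = 0.0009) for Kif20a and -0.69 (SE 0.21, adjusted p = 0.0078) for Ube2c. Ccnb1, the cyclin of the mitotic kinase Cdk1, had 2.07 to 5.89 (median 3.89) CPM in the control, 1.34 to 6.42 (median 3.26) at 1 Hz, 0.557 to 2.49 (median 1.89) at 4 Hz, and 2.37 to 5.11 (median 4.02) at 10 Hz. The 1 Hz libraries of Ccnb1 spread more widely than the controls. Its log2FC at 4 Hz was -1.06 (SE 0.32, adjusted p = 0.0081). Plk1, a kinase of mitotic entry and exit, had 1.79 to 2.37 (median 2.05) CPM in the control and 0.636 to 1.697 (median 1.51) at 4 Hz, with a log2FC of -0.60 (SE 0.23, adjusted p = 0.032). The groups of Plk1 did not overlap, but its call was lost without control replicate 5 (-0.58), without 4 Hz replicate 1 (-0.47), or without 4 Hz replicate 5 (-0.58).

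Another 11 mitotic members did not pass at 4 Hz. Those with a negative log2FC were Ccnb2, another B cyclin (-0.72), Cenpf, a kinetochore protein (-0.65), Kif23, a kinesin of the midbody (-0.59), Kif11, the kinesin that separates the spindle poles (-0.57), the kinase Aurka (-0.26), the spindle assembly factor Tpx2 (-0.21), Birc5 (survivin, -0.15), and the checkpoint kinases Bub1b (-0.11) and Bub1 (-0.09). Aurkb, the kinase that acts with Birc5 (0.30), and Cenpa, the histone variant of the centromere (0.10), had positive values, and the sign of Aurkb, Cenpa, and Bub1 turned on log2(TPM + 1) (-0.05, -0.07, and 0.17). Aurka was called lower on that scale (-0.46, adjusted p = 0.017 by limma), where the median of all genes was -0.21. Kif11 had 1.09 to 3.27 (median 1.88) CPM in the control, 0.406 to 3.93 (median 1.8) at 1 Hz, 1.09 to 1.53 (median 1.29) at 4 Hz, and 1.95 to 3.802 (median 2.67) at 10 Hz. Bub1 had 1.03 to 2.33 (median 1.57), 1.22 to 3.32 (median 2.17), 0.796 to 2.23 (median 1.57), and 1.44 to 2.796 (median 2.25) CPM, and Aurkb 0.575 to 2.04 (median 1.09), 0.894 to 3.12 (median 1.54), 0.974 to 1.82 (median 1.39), and 0.847 to 1.78 (median 1.59) CPM in the same order. These 3 genes lay at a few CPM or less, and each stimulated group overlapped the control. For Kif11 all libraries at 4 Hz lay below all at 10 Hz. At 1 Hz, Cdc20 was the 1 mitotic member called lower (5.88%) and 0 were higher, where 18.1% of all genes were lower and 19.2% higher. Aurkb had a log2FC of 0.66 (SE 0.28, adjusted p = 0.063) at 1 Hz. It was called higher without control replicate 3 (0.88) or 1 Hz replicate 5 (0.80).

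**Figure D3:**
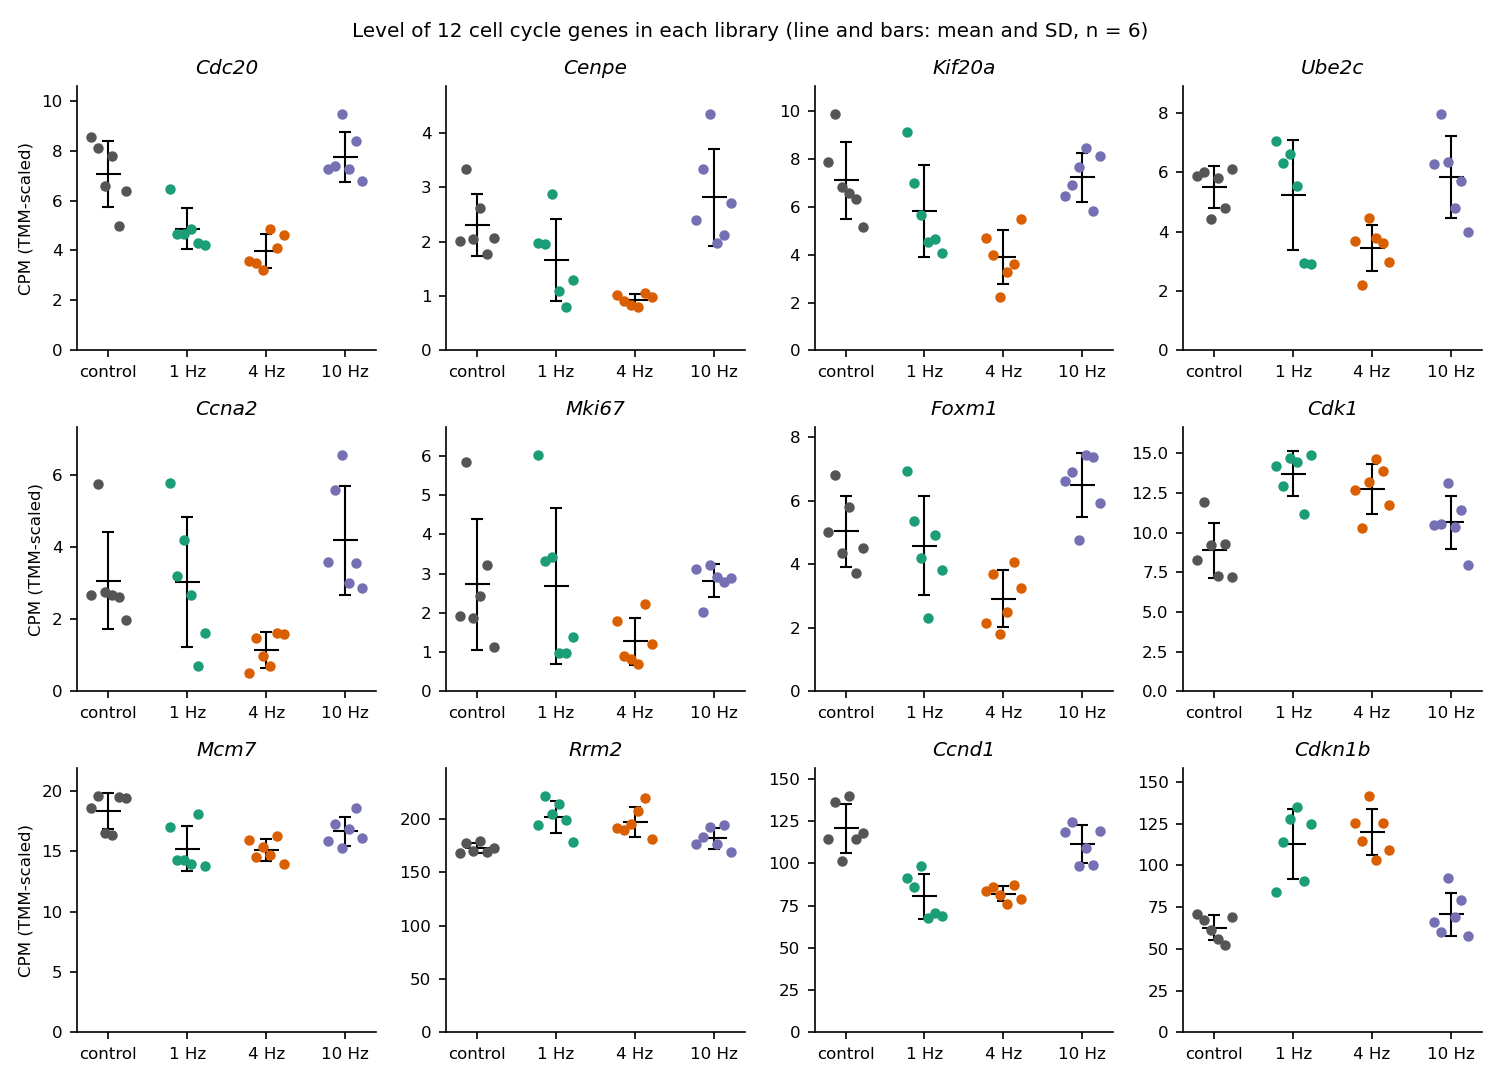
Level of 12 members in each of the 24 libraries, in TMM-scaled CPM on linear axes, with the mean ± SD of 6 libraries for the control, 1, 4, and 10 Hz. Cdkn1b lies at 84.0 CPM or higher in all libraries at 1 and 4 Hz and at 71.2 CPM or lower in the controls, while Cdc20 at 4 Hz does not exceed 4.87 CPM.

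Of the 15 S-phase members, 5 (33.3%) were lower and 2 (13.3%) higher at 4 Hz, against 23.9% and 27.5% of all genes. The lower genes were 4 helicase subunits and Rrm1. Mcm7 had 16.3 to 19.5 (median 19.03) CPM in the control, 13.7 to 18.1 (median 14.3) at 1 Hz, 13.9 to 16.2 (median 15.02) at 4 Hz, and 15.2 to 18.6 (median 16.5) at 10 Hz. The 4 Hz libraries lay just under the lowest control, and the log2FC was -0.28 (SE 0.08, adjusted p = 0.0069) at 4 Hz and -0.27 (SE 0.08, adjusted p = 0.013) at 1 Hz. The 1 Hz call of Mcm7 was lost with only the 2 groups fitted (-0.27, adjusted p = 0.051 by edgeR) and without the 4 libraries of TMM factor under 0.95 (-0.20, adjusted p = 0.10). Mcm4 had 15.8 to 23.4 (median 18.6), 12.4 to 20.03 (median 17.7), 10.02 to 19.6 (median 13.7), and 16.9 to 21.03 (median 18.99) CPM in the control and at 1, 4, and 10 Hz, with a log2FC at 4 Hz of -0.39 (SE 0.13, adjusted p = 0.017). Its groups overlapped, and the call was lost without the same 4 libraries (-0.28, adjusted p = 0.056 by edgeR). Mcm5 had a log2FC of -0.70 (SE 0.24, adjusted p = 0.018) at 4 Hz, where its libraries had 0.836 to 2.09 (median 1.53) CPM against 1.503 to 2.86 (median 2.28) CPM in the control, and without 4 Hz replicate 6 it was -0.57 and not called. Mcm3 was lower at both frequencies, with a log2FC of -0.30 (SE 0.10, adjusted p = 0.017) at 4 Hz and -0.32 (SE 0.10, adjusted p = 0.014) at 1 Hz. Both calls of Mcm3 were lost on log2(TPM + 1) by limma, where the values were -0.30 (adjusted p = 0.12) and -0.02 (adjusted p = 0.94). The helicase subunits Mcm2 and Mcm6 were not called on the TMM scale. Mcm2 had 14.2 to 17.6 (median 15.8) CPM in the control, 11.1 to 18.4 (median 14.7) at 1 Hz, 10.7 to 16.04 (median 15.2) at 4 Hz, and 15.1 to 17.7 (median 16.2) at 10 Hz, with a log2FC at 4 Hz of -0.13 (SE 0.11, adjusted p = 0.33), and Mcm6 had -0.17. Both were called lower at 4 Hz by limma on log2(TPM + 1), Mcm2 at -0.41 (adjusted p = 0.044) and Mcm6 at -0.47 (adjusted p = 0.015). The median of all genes on that scale was -0.21 at 4 Hz, against which these values are to be read.

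The 2 subunits of ribonucleotide reductase, which makes deoxynucleotides, moved in opposite directions at 4 Hz on the TMM scale. Rrm1 had 59.9 to 71.6 (median 67.9) CPM in the control, 56.2 to 72.4 (median 61.1) at 1 Hz, 50.8 to 64.8 (median 55.7) at 4 Hz, and 56.7 to 67.8 (median 62.6) at 10 Hz, a log2FC at 4 Hz of -0.23 (SE 0.07, adjusted p = 0.011). Rrm2 had 168 to 179 (median 171) CPM in the control, 178 to 221 (median 202) at 1 Hz, 181 to 219.7 (median 193) at 4 Hz, and 169 to 194 (median 179.5) at 10 Hz. Its 4 Hz libraries lay above every control by a narrow margin, and the lowest library at 1 Hz was under the highest control. The log2FC of Rrm2 was 0.19 (SE 0.06, adjusted p = 0.0097) at 4 Hz and 0.22 (SE 0.06, adjusted p = 0.0049) at 1 Hz. On log2(TPM + 1) the value of Rrm2 at 4 Hz was -0.14, against a shift of all genes of -0.21, and the call was lost there, without a filter (0.15), and without 4 Hz replicate 5 (0.14). The 1 Hz call of Rrm2 was lost on log2(TPM + 1) (0.0022, adjusted p = 0.99 by limma) and without a filter (0.19, adjusted p = 0.073 by edgeR). Cdt1, the helicase loader, was also called higher at 4 Hz, with 13.8 to 23.5 (median 17.8) CPM against 13.7 to 16.6 (median 14.6) CPM in the control, a log2FC of 0.30 (SE 0.12, adjusted p = 0.045). That call did not hold without control replicate 1, 2, 3, 5, or 6 or without 4 Hz replicate 3, 4, or 5 (0.18 to 0.32). It was also lost under RLE scaling (adjusted p = 0.063), without a filter (adjusted p = 0.13), with only the 2 groups fitted (adjusted p = 0.069), by DESeq2 (adjusted p = 0.079), and without the 4 libraries of low TMM factor (0.15, adjusted p = 0.30), and on log2(TPM + 1) the value was 0.0022.

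Another 6 S-phase members were not called at 4 Hz on the TMM scale. Pcna had 93.3 to 114 (median 96.04) CPM in the control, 80.5 to 116 (median 94.03) at 1 Hz, 85.1 to 100.2 (median 92.5) at 4 Hz, and 88.8 to 108 (median 102) at 10 Hz, with a log2FC at 4 Hz of -0.09 (SE 0.08, adjusted p = 0.36), but on log2(TPM + 1) it was called lower (-0.42, adjusted p = 0.00034 by limma). Tyms, which makes thymidylate, was low in every group, with 1.42 to 2.45 (median 2.06) CPM in the control, 1.28 to 2.89 (median 1.63) at 1 Hz, 1.198 to 2.09 (median 1.58) at 4 Hz, and 1.45 to 4.16 (median 2.49) at 10 Hz. Its log2FC was -0.29 (SE 0.23, adjusted p = 0.31) at 4 Hz and 0.33 (SE 0.22, adjusted p = 0.78) at 10 Hz. The loader Cdc6 (-0.44), Gins2 (0.41) and Cdc45 (0.07) of the active helicase, and the polymerase subunit Pola1 (0.11) were not called at 4 Hz, and the sign of Gins2, Cdc45, and Pola1 turned on log2(TPM + 1) (-0.07, -0.19, and -0.12). These 4 genes stayed under 9 CPM in every library. The median of all genes on log2(TPM + 1) was -0.21 at 4 Hz, and the values on that scale, that of Pcna included, are to be read against it.

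By role, the median log2FC at 4 Hz was -0.59 in the mitotic and -0.17 in the S-phase members, against 0.06 in all genes tested. The value was negative for 15 of 17 mitotic members (88.2%), 10 of 15 S-phase members (66.7%), and 44.7% of all genes. The share of members called lower was 35.3% and 33.3%, against 23.9% of all genes, and all 6 mitotic calls and 1 of the 5 S-phase calls were past the fold threshold (12.3% of all genes). At 1 Hz the medians were -0.01 and -0.10, against 0.04 in all genes, and at 10 Hz 0.12 and 0.04, against 0.01. Of the S-phase members, 2 (13.3%) were lower and 1 (6.67%) higher at 1 Hz, where 18.1% and 19.2% of all genes were. On log2(TPM + 1) the medians at 4 Hz were -0.51 and -0.36, to be read against the shift of -0.21. There limma called 6 of 15 mitotic members (40%) and 7 of 14 S-phase members (50%) lower at 4 Hz, and 0 higher. Of all genes, 35.9% were lower and 5.83% higher on that scale. On the TMM scale, the S-phase median at 4 Hz was -0.27 without 4 Hz replicate 4. The mitotic median was -0.37 without control replicate 2 and -0.41 without the 4 libraries of TMM factor under 0.95. Members of both roles were chosen with earlier results of these data known, so their comparison with all genes is a description. The 64 other mitotic genes tested, given below, had a median of -0.15 at 4 Hz, and 14 (21.9%) were lower.

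The summed level was lower at 4 Hz in the mitotic members and overlapped the controls in the S-phase members. The mitotic members together had 47.5 to 58.7 CPM at 4 Hz, under the lowest control (59.1 CPM), and 70.8 to 88.6 CPM at 10 Hz. At 1 Hz the libraries spread from 48.5 to 95.02 CPM, with 58.2, 52.6, and 48.5 CPM in replicates 4, 5, and 6 and 95.02, 80.1, and 84.1 CPM in replicates 1, 2, and 3. No 1 Hz library lay between 58.2 and 80.1 CPM. The TMM factor was 0.9043, 1.047, and 0.9311 in replicates 4, 5, and 6 and 1.001 to 1.014 in the other three, and these replicates also differed in other values. Depth was 18159144, 10695556, and 13227360 estimated counts in replicates 4, 5, and 6 and 8546524, 10281194, and 9042468 in replicates 1, 2, and 3, and the mitochondrial share 3.97%, 1.69%, and 4.87% against 1.53%, 1.52%, and 1.57%. The fibroblast markers summed to 1747, 1580, and 1823 CPM in replicates 1, 2, and 3 and to 1344, 1160, and 1107 CPM in replicates 4, 5, and 6. Ccnd1 had 91.3, 86.0, and 98.7 CPM against 67.6, 70.4, and 68.7 CPM in the same order. Cdk6 had 35.7, 29.9, and 29.2 CPM against 16.6, 21.5, and 16.9 CPM. For Ccnd1 and Cdk6 no value of replicates 4 to 6 reached those of replicates 1 to 3. The replicates are grouped here by their mitotic sums, and other members did not split this way. Ccnd2 had 129.8, 118.5, and 123.8 CPM against 84.7, 142.1, and 104.8 CPM. Cdkn1b had 84.04, 113.7, and 128 CPM against 135.2, 90.5, and 124.9 CPM. The part of depth, scaling, or cell makeup in this spread was not tested. The S-phase members together had 446 to 475 CPM in the control, 447 to 503 CPM at 1 Hz, 437 to 503 CPM at 4 Hz, and 440 to 486 CPM at 10 Hz, all overlapping. Rrm2 and Pcna make up most of that sum.

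**Figure D4:**
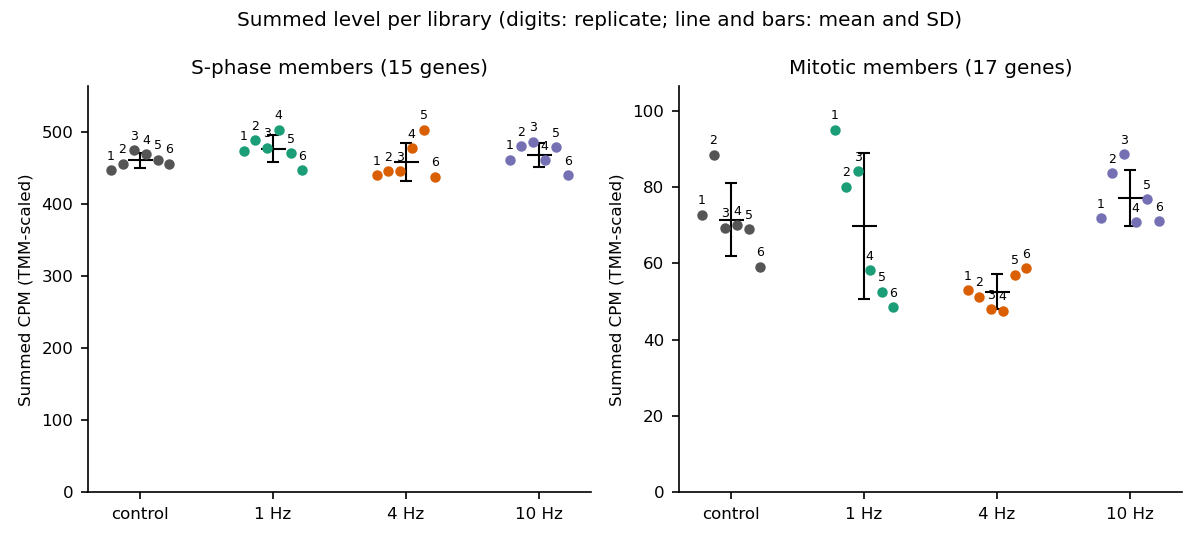
Summed level of the 15 S-phase members and of the 17 mitotic members in each library, in TMM-scaled CPM, with the mean ± SD of 6 libraries per group. The mitotic sum at 4 Hz (47.5 to 58.7 CPM) lies under all controls, the 1 Hz libraries fall on both sides, and the S-phase sums of the 4 groups overlap.

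Among the regulators, the G1 inhibitor rose and 2 D cyclins of G1 fell at 1 and 4 Hz, while the third was called higher at 4 Hz on the TMM scale. Of 15 regulator and marker members tested, 6 (40%) were lower and 4 (26.7%) higher at 4 Hz, against 23.9% and 27.5% of all genes. At 1 Hz, 3 (20%) were lower and 2 (13.3%) higher, against 18.1% and 19.2% of all genes. Cdkn1b (ENSMUSG00000003031, chr6:134897364-134902476 of GRCm39) had 52.4 to 71.2 (median 64.2) CPM in the control, 84.04 to 135 (median 119) at 1 Hz, 103 to 141 (median 119.7) at 4 Hz, and 57.6 to 92.5 (median 67.3) at 10 Hz. All libraries at 1 and 4 Hz lay above every control, and the log2FC was 0.85 (SE 0.12, adjusted p = 8.1e-06) at 1 Hz and 0.93 (SE 0.12, adjusted p = 1.1e-06) at 4 Hz. Ccnd1 (cyclin D1, ENSMUSG00000070348, chr7:144483668-144493662) had 101 to 139.6 (median 116) CPM in the control, 67.6 to 98.7 (median 78.2) at 1 Hz, 76.2 to 87.2 (median 82.3) at 4 Hz, and 98.6 to 125 (median 114) at 10 Hz. All libraries at 1 and 4 Hz lay below every control, with a log2FC of -0.59 (SE 0.09, adjusted p = 3.3e-05) and -0.56 (SE 0.09, adjusted p = 3.4e-05). Ccnd2 was lower as well, with a log2FC of -0.38 (SE 0.12, adjusted p = 0.013) at 1 Hz and -0.43 (SE 0.12, adjusted p = 0.0033) at 4 Hz, and its 1 Hz call was lost without the 4 libraries of TMM factor under 0.95 (-0.25, adjusted p = 0.071 by edgeR). Ccnd3 had 173 to 228 (median 207) CPM in the control, 214 to 231 (median 226) at 1 Hz, 199 to 281 (median 253) at 4 Hz, and 218 to 268 (median 232) at 10 Hz. It was called higher at 4 Hz on the TMM scale, 0.24 (SE 0.08, adjusted p = 0.013), but not without a filter (0.20), without control replicate 3 (0.18), or without 4 Hz replicate 4 (0.17), and its value on log2(TPM + 1) was -0.09. The share of Ccnd3 in the summed TPM of the 3 D cyclins does not depend on scaling between libraries, and it was 65.8% ± 2.29 (SD, n = 6) in the control, 74.4% ± 2.07 at 1 Hz, 75.8% ± 2.89 at 4 Hz, and 70.6% ± 4.38 at 10 Hz. Control libraries reached 69.2% at most, and the libraries at 1 and 4 Hz began at 71.8% and 72.2%. The mean TPM of Ccnd3 itself was not higher, at 175 in the control, 165.5 at 1 Hz, and 166.9 at 4 Hz. The other 2 parts of the sum were lower. Ccnd1 had means of 51.3, 30.01, and 27.91 TPM and Ccnd2 of 39.5, 27.86, and 24.44 TPM in the same order. No test was made of these shares.

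The CDKs differed in direction. Cdk1, the mitotic kinase, had 7.23 to 11.96 (median 8.77) CPM in the control, 11.2 to 14.9 (median 14.3) at 1 Hz, 10.3 to 14.6 (median 12.97) at 4 Hz, and 7.96 to 13.1 (median 10.5) at 10 Hz. It was called higher, by 0.62 (SE 0.12, adjusted p = 0.00035) at 1 Hz and 0.51 (SE 0.12, adjusted p = 0.0015) at 4 Hz, unlike its cyclins Ccnb1 and Ccna2 at 4 Hz. Neither call held on log2(TPM + 1) by limma, where the 4 Hz value was 0.21 (adjusted p = 0.24) and the 1 Hz value 0.30 (adjusted p = 0.11). Cdk1 overlaps Ank3 on the opposite strand, whose log2FC at 4 Hz was 0.24 (adjusted p = 0.066), and although the library kit keeps the strand, how counting used it is not given in the sources used here. Cdk6, a G1 kinase, had 22.5 to 44.7 (median 36.5) CPM in the control, 16.6 to 35.7 (median 25.3) at 1 Hz, 15.5 to 26.1 (median 22.04) at 4 Hz, and 29.9 to 43.2 (median 35.8) at 10 Hz, and was lower, with a log2FC of -0.72 (SE 0.17, adjusted p = 0.0014) at 4 Hz and -0.53 (SE 0.17, adjusted p = 0.018) at 1 Hz. The 1 Hz call of Cdk6 was lost without the libraries of low TMM factor (-0.31, adjusted p = 0.12 by edgeR), with only the 2 groups fitted (-0.52, adjusted p = 0.056), and by limma on log2(TPM + 1), where it was -0.55 with an adjusted p of 0.055. Cdk2 had 21.2 to 23.9 (median 22.8) CPM in the control, 20.1 to 25.04 (median 22.2) at 1 Hz, 20.1 to 23.1 (median 21.3) at 4 Hz, and 21.4 to 29.2 (median 25.3) at 10 Hz, with a log2FC at 4 Hz of -0.09 (SE 0.08, adjusted p = 0.36). On log2(TPM + 1) Cdk2 was called lower at 4 Hz (-0.34, adjusted p = 0.020 by limma). Cdk4 had -0.11 at 4 Hz and was not called on the TMM scale, but on log2(TPM + 1) it was called lower at 4 Hz (-0.40, adjusted p = 0.0031 by limma) and at 1 Hz (-0.35, adjusted p = 0.015). The median of all genes on that scale was -0.21 at 4 Hz and -0.14 at 1 Hz. The values of Cdk1, Cdk2, Cdk4, and Cdk6 there are to be read against that shift.

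Among the cyclins of S phase, Ccna2 was lower, Ccne1 higher, and Ccne2 not called at 4 Hz, and of the markers of dividing cells Mki67 was lower and Top2a not called. Ccna2 (cyclin A2) had 1.97 to 5.77 (median 2.68) CPM in the control, 0.715 to 5.78 (median 2.95) at 1 Hz, 0.509 to 1.64 (median 1.24) at 4 Hz, and 2.88 to 6.56 (median 3.58) at 10 Hz. All 4 Hz libraries lay below every control, while the 1 Hz libraries extended beyond the controls on both sides, and the log2FC at 4 Hz was -1.40 (SE 0.39, adjusted p = 0.0044). Mki67 had 1.13 to 5.83 (median 2.18) CPM in the control, 0.976 to 6.01 (median 2.35) at 1 Hz, 0.696 to 2.22 (median 1.06) at 4 Hz, and 2.02 to 3.22 (median 2.897) at 10 Hz, a log2FC at 4 Hz of -1.15 (SE 0.43, adjusted p = 0.029). That call was lost without control replicate 2 (-0.75), 4 Hz replicate 2 (-1.06), or 4 Hz replicate 4 (-1.05), without a filter (-1.19, adjusted p = 0.070 by edgeR), and without the 4 libraries of low TMM factor (-0.94, adjusted p = 0.084). Foxm1, a transcription factor of mitotic genes, had 3.72 to 6.82 (median 4.77) CPM in the control and 1.81 to 4.09 (median 2.88) CPM at 4 Hz, with a log2FC of -0.78 (SE 0.22, adjusted p = 0.0042). Ccne1 (cyclin E1) was higher at 4 Hz by 0.37 (SE 0.10, adjusted p = 0.0039), which on log2(TPM + 1) was 0.03 and not called. Ccne2 (0.01), Cdkn1c (-0.01), and the topoisomerase Top2a (0.03) were not called, and their values on log2(TPM + 1) were -0.32, -0.42, and -0.42, also not called. The median of all genes on that scale was -0.21 at 4 Hz. Cdkn1c had 4.48 to 6.87 (median 5.65) CPM in the control, 3.43 to 10 (median 4.55) at 1 Hz, 3.74 to 8.46 (median 5.15) at 4 Hz, and 2.88 to 5.22 (median 4.101) at 10 Hz, and the sign of its small value at 4 Hz turned under upper-quartile scaling (0.03). Mybl2, not tested, was at 0.335 to 0.711 CPM in the control and 0 to 0.608 CPM at 4 Hz.

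Of the 48 members, 29 share bases with a gene annotated on the other strand (GENCODE M39). The libraries were made with a directional kit, which keeps the strand of the RNA, and whether the counting used that strand is not given in the sources used here. Tnnc2, a troponin gene opposite Ube2c, averaged 625 CPM and had a log2FC of 0.46 at 4 Hz (adjusted p = 0.035), opposite in sign to Ube2c. The neighbors of Cdc20 (Elovl1, -0.27, adjusted p = 0.0019), Ccna2 (Exosc9, -0.37, adjusted p = 0.00064), Foxm1 (Rhno1, -0.74, adjusted p = 1.7e-05), and Ccnd1 (LTO1, -0.73, adjusted p = 3.6e-07) were lower at 4 Hz, as the members were. Bysl, opposite Ccnd3, was lower (-0.60, adjusted p = 1.7e-05) where Ccnd3 was higher, and Cops6, opposite Mcm7, was higher (0.23, adjusted p = 0.025) where Mcm7 was lower. Opposite members that were not called, Gse1 (Gins2) was at -0.69 (adjusted p = 0.00051), Ints8 (Ccne2) at -0.51 (adjusted p = 5.3e-07), Ufd1 (Cdc45) at -0.18 (adjusted p = 0.018), Tspan31 (Cdk4) at 0.30 (adjusted p = 0.00017), and the neighbors of Aurka at -0.20 (Cstf1, adjusted p = 0.039) and 0.38 (Fam210b, adjusted p = 0.0010). The part of these neighbors in the values of the members was not tested.

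At 10 Hz, 0 of 47 members were called against the control, where 0.015% of all genes were higher and 0.0225% lower. Unadjusted, 3 members (6.38%) had a p under 0.05 in edgeR, Ccnd3, Cdk2, and Cdkn1c, where 8.07% of all genes did, and DESeq2 and limma called 0 members. The log2FC was 0.23 (SE 0.08, adjusted p = 0.4) for Ccnd3, 0.17 (SE 0.08, adjusted p = 0.58) for Cdk2, -0.14 (SE 0.08, adjusted p = 0.71) for Mcm7, 0.45 (SE 0.28, adjusted p = 0.74) for Bub1, and 0.49 (SE 0.32, adjusted p = 0.76) for Kif11. The values were positive for 14 of 17 mitotic members and 9 of 15 S-phase members, where 47.9% of all genes were negative.

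Compared directly in the same fit, 10 Hz was higher than 4 Hz in 21 of 47 members (44.7%) and lower in 2 (4.26%), where 21.9% of all genes were higher and 24.4% lower. This comparison and that of 4 Hz with the control share the 4 Hz libraries, so their calls are not independent. On the TMM scale, 11 of 15 myotube markers (73.3%) were lower at 10 Hz than at 4 Hz and 0 higher, with a median log2FC of -0.45 (-0.05 in all genes) and sums that did not overlap (13127 to 16305 CPM at 10 Hz, 16730 to 20123 CPM at 4 Hz). On log2(TPM + 1) 3 of the 15 were lower and 2 higher, with a median of -0.17 against 0.20 in all genes, and the summed TPM overlapped (16128 to 18609 and 16224 to 19784), while 25 of 43 members (58.1%) were higher and 1 (2.33%) lower on that scale, where 33.2% of all genes were higher and 5.06% lower. The part of the myotube markers in the difference of the members was not tested. The mitotic members gave 9 of the 21, the regulators and markers 8, and the S-phase members 4. All 6 libraries at 10 Hz lay above all at 4 Hz for Cdc20, Cenpe, Kif11, Kif20a, Ccnd1, Ccna2, Cdk6, and Foxm1 (8 members, where 10.8% of all genes did), and below all for Cdkn1b (8.1% of all genes). The log2FC of 10 Hz minus 4 Hz was 1.81 (SE 0.39, adjusted p = 0.0007) for Ccna2, 1.57 (SE 0.27, adjusted p = 5.7e-05) for Cenpe, 1.13 (SE 0.22, adjusted p = 0.00019) for Foxm1, 1.06 (SE 0.35, adjusted p = 0.014) for Kif11, and 0.94 (SE 0.14, adjusted p = 1.4e-05) for Cdc20. The 2 members that were lower at 10 Hz were Cdkn1b, -0.76 (SE 0.12, adjusted p = 2.4e-05), and Ccne1, -0.36 (SE 0.10, adjusted p = 0.0069), the latter with a value of 0.09 on log2(TPM + 1). Of the 23 calls, 16 were kept whichever library was left out, and those of Mcm3, Mcm4, Tyms, Plk1, Kif23, Cenpf, and Mki67 were lost without at least 1 library.

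Against 1 Hz, 10 Hz was higher in 9 members (19.1%, where 14.8% of all genes were higher) and lower in 2 (4.26%, where 13.1% were lower). With upper-quartile scaling 5 members (10.6%) were higher, below the 13.7% of all genes. On log2(TPM + 1) 5 of 43 members (11.6%) were higher, where 15.5% of all genes were higher and 2.19% lower. The count of higher members was 3 without 10 Hz replicate 6 and 5 without 10 Hz replicate 2 or 1 Hz replicate 4. Without 1 Hz replicate 3 or 4 or without 10 Hz replicate 6, 1 member was lower. The shares of all genes with these libraries left out are not given here. Between 4 Hz and 1 Hz, edgeR called 0 members and 0% of all genes, with 11 members (23.4%) and 11% of all genes at an unadjusted p under 0.05 and 0 members by DESeq2. All 17 mitotic members had a negative value for 4 Hz minus 1 Hz, where 48.5% of all genes did, and the mitotic sums above overlapped between these groups.

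Other genes of the same processes were taken from lists of known function. Of 48 other replication genes tested, 15 fell (31.2%) and 9 rose (18.8%) at 4 Hz, against 23.9% and 27.5% of all genes, while 10 fell (20.8%) and 9 rose (18.8%) at 1 Hz, against 18.1% and 19.2%. The polymerase subunit Pola2 (-0.85, SE 0.09, adjusted p = 5.1e-08) and Cdca7, a target of E2F (-2.45, SE 0.30, adjusted p = 5.7e-07), were lower at 4 Hz, while Pold1, the catalytic subunit of polymerase delta (0.70, SE 0.13, adjusted p = 0.00013), and the helicase factor Gins4 (0.49, SE 0.11, adjusted p = 0.00085) were higher. The values of Pold1 and Gins4 were 0.21 and 0.15 on log2(TPM + 1) and not called. Of 64 other mitotic genes tested, 14 fell (21.9%) and 13 rose (20.3%) at 4 Hz, both below the shares of all genes, but past the fold threshold 13 fell (20.3%) and 7 rose (10.9%), against 12.3% and 12.8% of all genes, while 3 fell (4.69%) and 15 rose (23.4%) at 1 Hz, against 18.1% and 19.2% of all genes. Their median log2FC was -0.15 at 4 Hz and 0.12 at 1 Hz, against 0.06 and 0.04 in all genes. Hjurp, which places Cenpa at centromeres (0.80, SE 0.12, adjusted p = 8.2e-06), Cks2, a CDK subunit (0.62, SE 0.13, adjusted p = 0.00045), the condensin Smc2 (-1.28, SE 0.13, adjusted p = 3.8e-08), and the kinetochore protein Cenpt (-0.75, SE 0.14, adjusted p = 0.00013) passed the test at 4 Hz.

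Of the other CDK inhibitors, Cdkn2d (p19, 1.14, SE 0.16, adjusted p = 2.6e-06) and Cdkn2c (p18, 0.35, SE 0.12, adjusted p = 0.021) were higher at 4 Hz, as Cdkn1b was. The call of Cdkn2c was lost without control replicate 5 (0.30), 4 Hz replicate 3 (0.23), or 4 Hz replicate 4 (0.31), without the 4 libraries of low TMM factor (0.20, adjusted p = 0.16 by edgeR), without a filter (0.30, adjusted p = 0.054), and on log2(TPM + 1) (0.15). Cdkn1a (p21), with 817 to 1007 (median 963) CPM in the control and 868 to 1129 (median 953) at 4 Hz, was far above all members in counts and was not called. Cdkn2a and Cdkn2b had no count in any library, and Cdkn3 was under the filter. Replication-dependent histone genes, of which poly(A) libraries capture little, summed to 228 to 299 CPM in the control and 264 to 338 CPM at 4 Hz, and these groups overlapped.

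Markers of other cell types and states were measured beside the members. The 15 myotube markers summed to 16730 to 20123 CPM at 4 Hz, 11875 to 21372 CPM at 1 Hz, and 13127 to 16305 CPM at 10 Hz. At 4 Hz all 15 had a positive log2FC (median 0.21), and 3 (20%) were called higher, where 27.5% of all genes were, but on log2(TPM + 1) 11 of the 15 were negative (median -0.11, against -0.21 in all genes), with 1 called lower and 0 higher. The 3 called higher on the TMM scale included Tnni2, a fast troponin (0.57, SE 0.17, adjusted p = 0.0069), and Mylpf, a fast myosin light chain (0.57, SE 0.17, adjusted p = 0.0075), which both lost the call on log2(TPM + 1) (0.23 and 0.22). Of 9 tested markers of myoblasts and reserve cells, 4 were higher and 3 lower at 4 Hz, among them Myf5 (1.17, SE 0.13, adjusted p = 9.2e-08) and Spry1 (1.31, SE 0.13, adjusted p = 2.2e-08) on one side and Myod1 (-1.75, SE 0.09, adjusted p = 1.9e-13) and Cdh15 (-1.12, SE 0.11, adjusted p = 1.3e-08) on the other. Pax7 had 1.67 to 2.79 (median 2.04) CPM at 4 Hz, below all controls. The 10 markers of this list summed to 954.3 to 1127 CPM in the control, 841 to 950.5 CPM at 1 Hz, 863 to 988 CPM at 4 Hz, and 1010 to 1060 CPM at 10 Hz, so all 1 Hz libraries lay below the controls and those at 4 Hz overlapped them. In summed TPM the control libraries (683 to 775) lay above all at 1 Hz (415 to 609) and at 4 Hz (410.2 to 579). The TPM of all genes also shifted downward in these groups. The mitotic sum in TPM was 47.3 to 64.8 in the control and 27.5 to 39.2 at 4 Hz, which did not overlap. At 1 Hz it was 29.9 to 70.4 and overlapped the controls. The fibroblast list summed to 1104 to 1850 CPM in the control, 1107 to 1823 CPM at 1 Hz, 1237 to 1779 CPM at 4 Hz, and 1359 to 1877 CPM at 10 Hz, with 2 of 7 tested genes higher at 4 Hz, Dcn (0.43, SE 0.13, adjusted p = 0.0064) and Pdgfra (0.36, SE 0.11, adjusted p = 0.0072), and 1 lower, Col1a1 (-0.71, SE 0.23, adjusted p = 0.014). The calls of Dcn and Pdgfra were lost on log2(TPM + 1) (0.10 and 0.22). Of the adipocyte list only Pparg passed the filter (0.55, SE 0.14, adjusted p = 0.0026, not called on log2(TPM + 1), 0.17), with the other 5 under it, and the list summed to 13.1 to 22.6 CPM in the control and 22.3 to 34.9 CPM at 4 Hz. Immune markers were represented by Cd68 alone, which was not called, with sums of 48.2 to 58.6 and 47.7 to 68.3 CPM in the control and at 4 Hz. The 6 endothelial markers summed to 1.22 CPM at most, with Tie1 at 0 throughout. The part of these markers in the change of the members was not tested.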

How the data were processed

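Reads were mapped by the authors with the nf-core/rnaseq pipeline to GRCm39 with the Ensembl annotation, and the deposited estimated counts per gene are those of salmon, not normalized. The TPM per gene was deposited from the same pipeline. The paper also names BWA-MEM for mapping to the mouse genome and bedtools for quality metrics, and the submitters' processing notes name BWA 0.7.12-r1039, bedtools 2.25.0, STAR, and the builds mm10 and hg19 with no role given. Libraries were made with a directional kit after poly(A) selection, and per the labels, unnamed samples with little RNA were ribodepleted instead. Salmon divides reads between near-identical copies of a gene, so members with processed copies are less certain. The 30-min experiment was not analyzed here.

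Estimated counts (6.15% not whole within 0.001) were rounded, scaled by TMM, filtered by filterByExpr (minimum count 10, minimum total 15), and tested in edgeR 4.0.16 (R 4.3.3) by the quasi-likelihood F test with robust dispersion in 1 fit of 4 groups. P-values were adjusted by the Benjamini-Hochberg method over 13315 genes in each comparison. The biological coefficient of variation was 14.8%, which with 6 libraries per group sets the precision. The replicates are biological replicates per the paper, and replicate numbers did not pair the samples. The method was tested on simulated data, of which no result is given here.

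The members and lists were chosen with earlier results of these data known. Members with all values are, by rule, the 4 of each role with the smallest p at 4 Hz, the 2 of each role with the smallest p at 1 and 10 Hz, and Mki67, Ccnd1, Cdkn1b, Cdkn1c, Mcm2, Pcna, Cdc20, and Ccnb1, and every other member is named at least once. Ccna2 was given all values after these were seen. Genes of other lists are the 2 with the smallest p in each direction among those called at 4 Hz, with Cdkn1a, Pax7, and Cd68 added after their values were seen. Alternatives were RLE and upper-quartile scaling, no filter, a stricter one (6 libraries with 50 counts), a fit of just the 2 groups in question, the replicate number as a block, DESeq2 1.42.0 by its Wald test, limma 3.58.1 on log2(TPM + 1) and log2(TPM + 0.1) where at least 6 libraries reached 1 TPM, an added fold threshold, and leaving out each library. Leaving out the 4 libraries of TMM factor under 0.95 was added after the data were seen. Gene positions and opposite-strand genes come from GENCODE M39.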

Additional observations from a re-analysis of the deposited data

Results flagged for a closer look

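In 8 of the 188 groups of 6 libraries formed by the 47 tested members and 4 conditions, 1 library stood apart from the other 5 by Dixon's criterion. Chance gives about 1 in 20, so the number found is no more than chance would give. No explanation was tested for any of them. Control replicate 2 was high for both Ccna2 (5.77 CPM, the others 1.97 to 2.76) and Top2a (11.4 CPM, the others 5.26 to 7.52), and the controls of Pcna had 1 high library, replicate 3 (114 CPM, the others 93.3 to 99.8). At 1 Hz, replicate 1 was high for Cdc20 (6.47 CPM, the others 4.23 to 4.88) and replicate 4 for Cdkn1c (10.0 CPM, the others 3.43 to 5.84). At 4 Hz, replicate 5 was high for Gins2 (4.20 CPM, the others 1.99 to 2.81) and replicate 4 for Cdk4 (93.9 CPM, the others 76.3 to 82.7). At 10 Hz, replicate 2 was low for Mki67 (2.02 CPM, the others 2.80 to 3.22).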

How the results depend on the processing

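Of the alternatives for the counts and medians of the members, 416 values lay within the limits set for an unmoved result and 44 did not. Members higher at 1 Hz numbered 1 on log2(TPM + 1) and log2(TPM + 0.1), 5 without the 4 libraries of low TMM factor, and 3 to 5 with 1 library left out, and members lower at 1 Hz 3 with the fold threshold and 3 without the libraries of low factor. Members higher at 4 Hz numbered 2 with the fold threshold, 3 without a filter, and 1 and 1 on the TPM scales, and members lower 11 with the strict filter, which tested 29 members. For 10 Hz against 4 Hz, 11 were higher with the strict filter, and 1 was lower with the fold threshold and 1 and 1 on the TPM scales. For 10 Hz against 1 Hz, 4 were higher with the fold threshold, 5 with upper-quartile scaling, 5 without a filter, 4 with only the 2 groups, 5 and 5 on the TPM scales, 4 without the libraries of low factor, and 3 to 11 with 1 library left out, while 1 was lower with the fold threshold, without a filter, and on both TPM scales, and 1 to 2 with 1 library left out. The S-phase median on log2(TPM + 1) and log2(TPM + 0.1) was -0.17 and -0.21 at 1 Hz, -0.36 and -0.41 at 4 Hz, and 0.40 and 0.42 for 10 Hz against 4 Hz, and -0.27 to -0.15 at 4 Hz with 1 library left out. The mitotic median at 4 Hz was -0.93 on log2(TPM + 0.1), -0.41 without the libraries of low factor, and -0.66 to -0.37 with 1 library left out, and for 10 Hz against 4 Hz 0.52 on log2(TPM + 1) and 0.56 without the libraries of low factor. The counts above are of members alone, and the share of all genes called also moved between settings. For 10 Hz against 1 Hz with upper-quartile scaling, 10.6% of members were higher, where 13.7% of all genes were. The shift of all genes between the scales is part of the TPM values, and the cause of the other changes was not tested.

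The alternatives were run in full for 90 comparisons of 54 single genes, and 21 values reversed there. On log2(TPM + 1) and log2(TPM + 0.1) they were at 4 Hz -0.14 and -0.14 for Rrm2, -0.046 and -0.034 for Aurkb, 0.17 and 0.24 for Bub1, and -0.094 and -0.094 for Ccnd3, and for 10 Hz against 4 Hz 0.094 and 0.11 for Ccne1. Cdt1 at 4 Hz was -0.0001 on log2(TPM + 0.1). Cdkn1c at 4 Hz was 0.026 under upper-quartile scaling and -0.20 to 0.073 with 1 library left out, and Bub1 -0.24 to 0.060. Of the other values of these genes, 1792 kept their direction and side of the threshold, 121 lost the call, and 8 gained it. Other comparisons of single members are not in these counts. With a replicate block, the calls of 10 Hz against 4 Hz for Mcm3 (0.26), Tyms (0.59), and Cenpf (0.83) were lost, and no other call among the single genes named was. Same-numbered libraries had a correlation of deviations from -0.33 to 0.24 over 36 pairs (median -0.02), over 0.1 in 3, so the numbers were not taken to pair the samples. Genes of 1 to 3 CPM, among them Cenpe, Mki67, Bub1, and Tyms, have few counts per library at this depth, and small changes of such genes were not detectable.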

Other observations

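Within the CDKs, the share of a gene in their summed TPM does not depend on scaling between libraries. Cdk4 held most of that sum, 83.9% ± 2.20 (SD, n = 6) in the control, 80.8% ± 1.43 at 1 Hz, 81.3% ± 0.845 at 4 Hz, and 82.6% ± 2.65 at 10 Hz. For Cdk1 it was 6.87% ± 1.41 in the control, 10.4% ± 0.998 at 1 Hz, 10.2% ± 1.11 at 4 Hz, and 8.01% ± 1.78 at 10 Hz. Control libraries of Cdk1 ran from 5.95% to 9.69% and overlapped those at 1 Hz (9.02% to 11.7%) and 4 Hz (8.60% to 11.9%). Cdk6 had the smallest share, 2.47% ± 0.703 in the control and 1.73% ± 0.263 at 4 Hz.

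Within the MCM helicase, whose 6 subunits are members, Mcm7 had the largest share in the control (29.0% ± 3.79) and Mcm5 the smallest (2.66% ± 0.622). At 4 Hz these shares were 26.8% ± 5.71 and 2.00% ± 0.630, with libraries from 21.0% to 37.0% and 1.25% to 2.72% that overlapped the controls (23.7% to 34.7% and 1.82% to 3.61%) and extended beyond them. No test was made of these shares.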
